A study of Mus musculus with 3 samples.

Results

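The complex I subunit genes were examined in single-cell transcriptomes of embryonic mouse kidney. They were taken as every gene whose symbol starts with *Nduf*, without the *Ndufaf* assembly factors and without symbols that hold -ps. Of the 32285 genes counted, 47 start with *Nduf*, 8 of these are *Ndufaf* genes and 1 holds -ps, so 38 members remained. Of these, 36 encode subunits of complex I. The other two are *Ndufa4*, whose protein is now known as a subunit of cytochrome oxidase (complex IV), and *Ndufa4l2*, its hypoxia-inducible paralog. They carry the family's symbol only, and their values are given apart where they matter.

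Complex I, the NADH:ubiquinone oxidoreductase of the inner mitochondrial membrane, passes electrons from NADH to ubiquinone and pumps protons as it does so. Its matrix arm holds the N module, where NADH is oxidised, and the Q module, where ubiquinone is reduced, and its membrane arm has a proximal and a distal proton-pumping part. A conserved core does the chemistry, part of it encoded in the nucleus and part in the mitochondrial genome, and many small accessory subunits, all of them nuclear, surround and stabilise it. In the kidney the proximal tubule relies heavily on oxidative phosphorylation, while nephron progenitors are known to draw more on glycolysis.

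Whole kidneys were taken at E15.5 (embryonic day) and sequenced from the 3′ ends of transcripts in droplets (10x Genomics), in 3 libraries, 1 per group. The Enl-WT and Enl-T1 libraries each pooled more than 1 embryo, and for the third library no embryo number is given in the sources used here. Enl-WT embryos were *Enl* +/+ *Wt1* GFPCre/+. Enl-T1 embryos were *Enl* flox-T1/+ *Wt1* GFPCre/+ and so were heterozygous for the T1 mutation of ENL, a chromatin reader encoded by *Mllt1*, after Cre recombination. Enl-T1 TDI-11055 embryos had the Enl-T1 genotype, and their mothers received TDI-11055, a small molecule that blocks the acyl-binding pocket of ENL, by mouth at 100 mg/kg each day from E10.5 to E14.5. They are called the treated embryos, cells or library below. All 3 groups carried the *Wt1*-GFPCre knock-in, which inactivates 1 *Wt1* allele. Cre acts in *Wt1*-expressing cells and their progeny, chiefly nephron and stroma, so most ureteric epithelium and endothelium of the Enl-T1 embryos would keep the unswitched allele. The 3′ counts do not read the T1 mutation and cannot check the labels. *Mllt1* itself had 29.7, 21.0 and 19.4 CPM (the UMIs, or unique molecular identifiers, of a gene scaled by the total of its class of cells to a common sum) in the nephron progenitors of Enl-WT, Enl-T1 and the treated library.

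Each group was 1 library, so no test between groups was possible, and genotype, litter and library cannot be told apart. All intervals in brackets are exact 95% intervals that cover counting error only. After the filters of 1000 to 6000 genes and at most 10% mitochondrial UMIs, 5233, 4144 and 2754 cells were kept in Enl-WT, Enl-T1 and the treated library, with medians of 5090, 9391 and 16932 UMIs. Any pair of libraries shared 5 to 8 kept barcodes. The libraries differed in 3 ways that accompany every comparison below. The median share of ribosomal protein UMIs was 16.5%, 26.8% and 27.8%. Female cells made up 26.5%, 73.3% and 35.1% and male cells 46.5%, 16.5% and 35.4%, while the remaining cells took no sex call. Barcodes with under 1% mitochondrial UMIs made up 0.879%, 2.90% and 26.8% of kept cells, and in the treated library they held a median of 5114 UMIs against 19824 in its other cells. The part of these differences in the results was not tested.

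Start-site windows of the members are shown first because nuclear respiratory genes are known for shared promoter motifs. RefSeq (GRCm38.p6) windows of 300 bases, with 250 before and 50 after the start of transcription, were at hand for 33 of the 38 members. The NRF1 motif GCGCANGCG, searched on both strands like all the others, was found in windows of 8 of the 33 members (24.2%) and in 6.25% of all 32851 windows. The YY1 motif AAGATGGC was found in 7 (21.2%, all windows 2.75%), the ETS motif CCGGAAG in 4 (12.1%, 8.86%), the cAMP response element TGACGTCA in 3 (9.09%, 1.79%), the SP motif GGGGCGGGG in 5 (15.2%, 11.4%), TATAAA in 4 (12.1%, 13.6%) and the ERRα motif TCAAGGTCA in 0 (all windows 0.423%). At least 1 of the NRF1, YY1 and ETS motifs was present in 18 of the 33 members and in 16.0% of all windows. These are matches of letters, not sites of binding. 4 windows follow, 5′ to 3′ on the strand of the gene, with the motif in capitals. *Ndufa3* (chr7:3617123-3617422, plus strand) and *Ndufc1* (chr3:51408906-51409205, minus strand), 2 of the members that were highest in Enl-T1 relative to Enl-WT, carry the YY1 motif at base 273 of the window. *Ndufa5* (chr6:24527477-24527776, minus strand), another of them, carries the NRF1 motif, and the core subunit gene *Ndufs3* (chr2:90904672-90904971, minus strand) carries the ETS motif on each strand.
Ndufa3: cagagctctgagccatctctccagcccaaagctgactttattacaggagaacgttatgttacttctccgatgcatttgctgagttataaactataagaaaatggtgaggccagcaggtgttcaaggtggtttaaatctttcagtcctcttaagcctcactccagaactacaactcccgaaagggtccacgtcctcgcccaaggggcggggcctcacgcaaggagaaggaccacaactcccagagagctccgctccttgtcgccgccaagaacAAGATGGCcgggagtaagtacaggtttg
Ndufc1: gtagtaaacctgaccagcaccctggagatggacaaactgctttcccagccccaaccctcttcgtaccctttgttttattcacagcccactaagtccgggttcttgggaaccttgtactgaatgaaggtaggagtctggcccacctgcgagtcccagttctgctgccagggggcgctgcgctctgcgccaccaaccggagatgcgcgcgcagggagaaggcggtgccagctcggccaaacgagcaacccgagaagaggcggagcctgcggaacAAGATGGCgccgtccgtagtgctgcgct
Ndufa5: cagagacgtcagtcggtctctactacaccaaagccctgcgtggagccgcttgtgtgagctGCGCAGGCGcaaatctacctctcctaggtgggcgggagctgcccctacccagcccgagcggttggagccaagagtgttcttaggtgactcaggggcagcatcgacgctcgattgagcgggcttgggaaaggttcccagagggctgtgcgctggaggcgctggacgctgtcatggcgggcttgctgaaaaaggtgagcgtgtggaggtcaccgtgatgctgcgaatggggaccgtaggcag
Ndufs3: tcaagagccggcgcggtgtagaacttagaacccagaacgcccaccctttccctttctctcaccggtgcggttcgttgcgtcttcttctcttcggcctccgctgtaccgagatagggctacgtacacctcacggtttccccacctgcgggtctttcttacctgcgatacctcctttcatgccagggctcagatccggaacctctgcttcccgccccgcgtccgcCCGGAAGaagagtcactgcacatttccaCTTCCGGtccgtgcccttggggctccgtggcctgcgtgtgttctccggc

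Cells were sorted into classes by clusters made without the members, and classes were named from marker genes, with the suffix -like. The first class is NP1-like, named from markers of self-renewing nephron progenitors, with 850, 770 and 743 cells in Enl-WT, Enl-T1 and the treated library. It joins 4 clusters, of which 1 has such markers (*Cited1* among them) among its 10 leading genes. The other clusters have 0 there, and cell cycle genes lead in a pair of them. At the coarser clustering resolution a cluster that shares leading genes with the fourth (*C1qtnf12*, *Hist1h2bc*, *Prrx1* and *Crabp2*) also had *Wnt4*, a marker of committed cells, among its leading genes and stayed unnamed, so the class may hold committed cells too. In these cells 37 of the 38 members had a mean of at least 5 CPM over the libraries. The exception was *Ndufa4l2*, with 2, 3 and 1 UMIs. In Enl-WT the 3 highest levels were those of *Ndufa4* (613 CPM), *Ndufb9* (306 CPM), a distal membrane arm subunit of the LYR family, and *Ndufb5* (293 CPM), also of the distal arm. The 3 lowest were those of *Ndufa3* (59.6 CPM), *Ndufa1* (59.8 CPM) and *Ndufs1* (65.7 CPM). A molecule is counted once at its 3′ end whatever its length, so these values were not divided by length, and genes can differ in how well that end is captured.

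**Figure D1:**
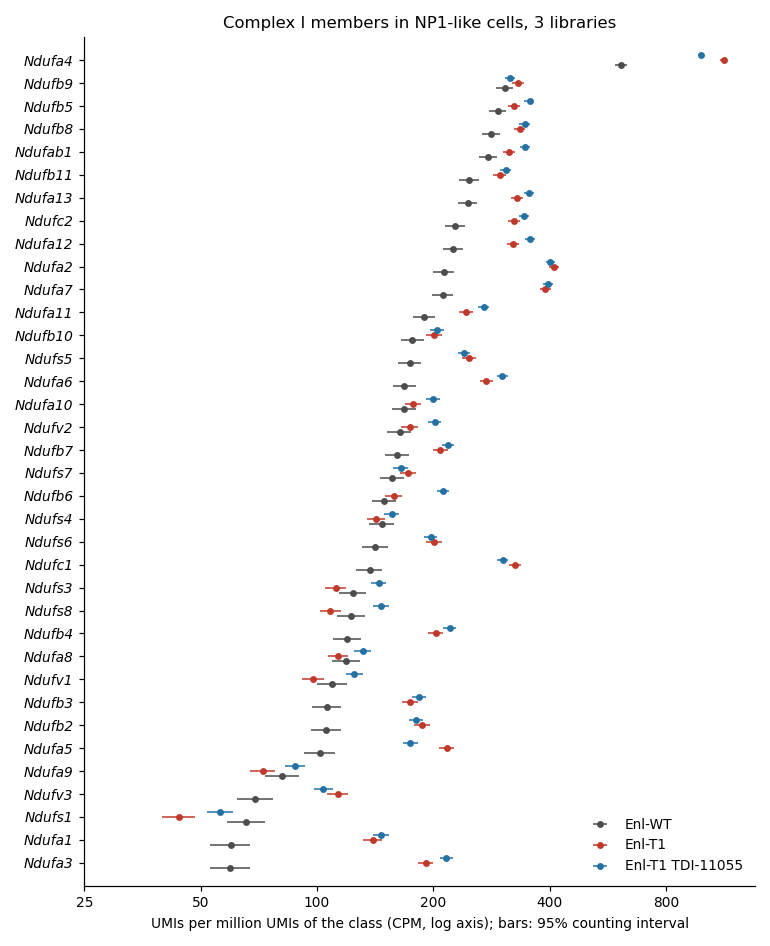
Levels of 36 of the 37 members that passed 5 CPM in NP1-like cells, on a log axis in CPM, with 1 point per library and bars for the 95% counting interval. *Ndufa3*, *Ndufc1* and *Ndufa1* lie well to the right in both Enl-T1 libraries (*Ndufa3* at 191 and 216 CPM against 59.6 in Enl-WT), while *Ndufs1* lies to the left in Enl-T1 at 43.9 CPM against 65.7.

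The first question was whether the genes differed between Enl-T1 and Enl-WT nephron progenitors. The summed level of the 38 members was 6486 CPM [6414 to 6559] in Enl-WT and 8952 CPM [8892 to 9013] in Enl-T1. Most members were higher in Enl-T1, and the accessory subunits carried the difference: 29 of the 37 had a ratio of Enl-T1 over Enl-WT above 1, 26 with an interval above 1, and the median log2 ratio was 0.37 (quartiles 0.08 and 0.72). It was 0.70 with median-of-ratios scaling and 0.61 with a total that left out mitochondrial, ribosomal protein and haemoglobin genes. Over all 9830 genes tested the median log2 ratio was −0.34, so the members' median lay 0.70 above it, and 36 of the 37 members lay above the median of all genes. Within each NP1-like cluster taken alone, 24 to 29 of 37 members had a ratio above 1, beside 26.9% to 29.3% of all genes. The share of all genes with an interval above 1 was not counted. By the fold of 1.4 of the study's methods, 16 members were higher in Enl-T1, beside 7.81% of all genes tested, and 1 was lower, beside 39.1% of all genes. In the same cells the share of ribosomal protein UMIs was 19.7% in Enl-WT and 31.7% in Enl-T1.

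The accessory subunits and the nuclear core subunits went different ways. Of the 29 accessory subunits, 26 were higher in Enl-T1, 15 of them by the fold of 1.4 or more, with a median log2 ratio of 0.50. Of the 7 nuclear core subunits, 2 were higher, none by that fold, and the median log2 ratio was −0.15, which became 0.19 with median-of-ratios scaling and 0.10 with a total that left out mitochondrial, ribosomal protein and haemoglobin genes. The sign for the core genes thus depended on the scaling. A scaling shifts all genes of a library alike, so the gap between core and accessory genes is the same under each. Relative to the median of all genes the core median was 0.19 higher.

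The members with the highest ratios of Enl-T1 over Enl-WT were small accessory subunits. *Ndufa3*, a membrane-spanning subunit of the proximal arm, had 59.6, 191 and 216 CPM (Enl-WT, Enl-T1 and treated, here and in the values that follow), a ratio of Enl-T1 over Enl-WT of 3.21 [2.83 to 3.65]. *Ndufc1*, also of the proximal arm, had 137, 325 and 303 CPM, a ratio of 2.38 [2.18 to 2.59]. *Ndufa1*, an X-linked proximal arm subunit, had 59.8, 139 and 146 CPM, a ratio of 2.33 [2.05 to 2.66]. For each of these genes Enl-WT was low and both Enl-T1 libraries were high. *Ndufa5*, an accessory subunit of the Q module, had 102, 217 and 175 CPM, a ratio of 2.13 [1.93 to 2.36]. *Ndufa2*, a thioredoxin-like subunit of the N module, had 213, 411 and 402 CPM, a ratio of 1.93 [1.80 to 2.07]. Intervals of Enl-WT and Enl-T1 did not overlap for any of these 5 genes. The 5 genes were picked by that same ratio, so this gives no further support. The share of all genes with such intervals was not counted.

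The members with the lowest ratios were core subunits and *Ndufa9*. *Ndufs1*, the large iron-sulfur subunit of the N module (chr1:63143596-63176833, mm10), had 65.7, 43.9 and 56.2 CPM in this order, a ratio of 0.668 [0.576 to 0.777]. It was the only member lower by the fold of 1.4, and its log2 ratio of −0.58 stayed below 0 under both other scalings (−0.25 and −0.34). *Ndufs8*, which carries iron-sulfur clusters of the Q module, had 122.5, 108 and 146 CPM, a ratio of 0.884 [0.798 to 0.981]. *Ndufa9*, a Q module accessory subunit with a dehydrogenase-like fold, had 81.3, 72.3 and 87.8 CPM, a ratio of 0.890 [0.784 to 1.01]. *Ndufv1*, the flavin subunit at which NADH is oxidised, had 109, 97.6 and 125 CPM, a ratio of 0.892 [0.80 to 0.995]. *Ndufs3*, of the Q module, had 124, 112 and 144 CPM, a ratio of 0.904 [0.816 to 1.00]. In these 5 genes Enl-T1 was the lowest of the 3 libraries, but for *Ndufs8*, *Ndufa9*, *Ndufv1* and *Ndufs3* the order of Enl-WT and Enl-T1 turned under both other scalings.

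Other core genes differed less between Enl-WT and Enl-T1. *Ndufs7*, an iron-sulfur subunit of the Q module, had 156, 172 and 165 CPM, a ratio of 1.10 [1.01 to 1.2]. *Ndufv2*, an iron-sulfur subunit beside *Ndufv1*, had 164, 174 and 202 CPM, a ratio of 1.06 [0.974 to 1.16].

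By place in the complex, the proximal membrane arm had the highest median log2 ratio of Enl-T1 over Enl-WT (0.50, 8 of 9 higher), followed by the N module (0.30, 5 of 8), the distal membrane arm (0.24, 11 of 11) and the Q module (−0.00, 4 of 8). In the distal arm the spread was small, from 0.08 to 0.83. *Ndufa4*, of complex IV, had 613, 1129 and 986 CPM, a ratio of 1.84 [1.77 to 1.92], and had the highest level of any member in all 3 libraries. Without *Ndufa4* and *Ndufa4l2* the 36 subunits summed to 5873, 7823 and 8292 CPM.

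The members' ratios followed coding length. Across the 37 members Spearman's rho between the log2 ratio of Enl-T1 over Enl-WT and the coding length of the principal transcript was −0.84 in NP1-like cells, and across all 9554 genes with a coding length it was −0.55. These are correlations across genes that share the same libraries, and genes are not independent replicates. For the bins of coding length, ribosomal protein genes and mitochondrially encoded genes were left out of the other genes. The 5 members with a coding length under 300 bases had a median log2 ratio of 1.22, against 0.33 for the 208 other genes of that length. The 14 from 300 to 450 bases had 0.51 against 0.15, the 8 from 450 to 600 bases 0.16 against 0.00, the 6 from 600 to 1200 bases −0.03 against −0.17, and the 4 longer ones −0.15 against −0.55. In every bin the members' median was above that of the other genes so chosen, and in both it was lower in each longer bin. The core genes are among the longest members, so core and length overlap. Between 600 and 1200 coding bases, the log2 ratios of the accessory genes *Ndufa9* (−0.17) and *Ndufa10* (0.08) lay within the range of the 4 core genes. That range ran from −0.18 for *Ndufs8* to 0.14 for *Ndufs7*. These members show no gap at like coding length but are too few to decide it. By whole mRNA length, from 983 to 2661 bases, the core median was −0.15 (7 genes) and the accessory median 0.28 (8 genes, from −0.17 to 1.25). Those accessory genes include ones of short coding length, such as *Ndufc1* (228 bases). Whether length accounts for the gap between core and accessory genes was not tested.

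*Ndufv3*, a flavoprotein-part accessory subunit of the N module, stood off this line. It had 69.3, 113 and 104 CPM, a ratio of 1.63 [1.44 to 1.85], with a coding length of 1404 bases in its principal transcript. The annotation also lists a shorter transcript with 312 coding bases, and 3′ counts do not tell the transcripts apart. For the treated library over Enl-WT in NP1-like cells, rho was −0.82 across members and −0.68 across all genes, and for the treated library over Enl-T1 it was 0.47 and −0.36. Between classes of the Enl-WT library, rho for proximal tubule-like over NP1-like cells was 0.20 across members and −0.07 across all genes, and for stroma-like over NP1-like cells it was −0.52 and 0.01.

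**Figure D2:**
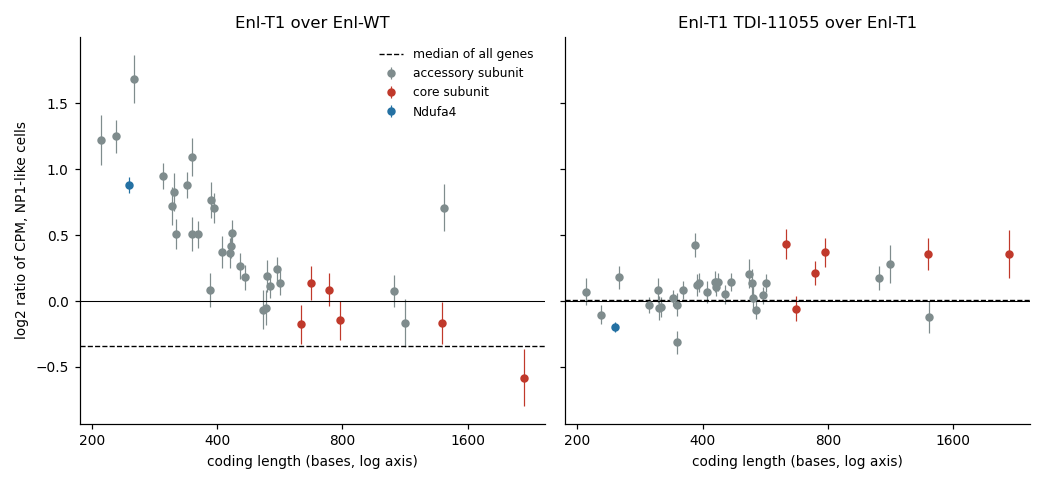
Log2 ratio of CPM in NP1-like cells against coding length in bases (log axis) for 36 members, in 2 panels, Enl-T1 over Enl-WT and treated over Enl-T1, with core and accessory subunits in different colours, bars for the 95% counting interval and a dashed line at the median of all genes. The shortest members sit highest for Enl-T1 over Enl-WT and most core genes sit just below 0, a side of 0 that turned under other scalings.

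*Ndufb1-ps* was left out by the rule on symbols, although RefSeq lists that name as a synonym of the protein-coding *Ndufb1*, a small distal arm subunit. In NP1-like cells it had 73.3, 292 and 301 CPM in Enl-WT, Enl-T1 and the treated library, a ratio of Enl-T1 over Enl-WT of 3.99 [3.57 to 4.47], higher than that of any member. Across the 8 classes compared this ratio ran from 2.40 to 4.58.

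The other genes of the complex I pathway were less uniform. Of 17 assembly factors, which build the complex and do not stay in it, 13 were higher in Enl-T1 NP1-like cells and the median log2 ratio was 0.24. *Lyrm2*, needed for the N module, had the highest log2 ratio (0.89) with *Ndufaf8* (0.62), and *Acad9* (−0.68) and *Ecsit* (−0.55), which act together in the assembly of the membrane arm, had the lowest. The 7 mitochondrially encoded core subunits summed to 14202, 14010 and 9340 CPM, with 3 of 7 higher in Enl-T1 and a median log2 ratio of −0.19. Of 15 regulators of respiratory genes that passed 5 CPM, 4 were higher and the median log2 ratio was −0.35, close to the −0.34 of all genes. *Ppargc1b* (0.80) and *Myc* (0.29) were highest among them, and *Nrf1* (−1.01) and *Yy1* (−0.82), the factors named by the motifs above, were lowest. The genes of the mitochondrial ribosome (78 tested) had a median log2 ratio of 0.07 and those of the cytosolic ribosome (82 tested) one of 0.60.

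The members' median in NP1-like cells was also taken over subsets of cells. It was 0.32 in male cells alone, 0.35 in female cells alone, 0.39 without cycling cells and 0.36 without barcodes under 1% mitochondrial UMIs. Within the 4 NP1-like clusters taken alone it was 0.41, 0.23, 0.41 and 0.29. The X-linked *Ndufa1* had 59.8 CPM in female and 60.3 CPM in male NP1-like cells of Enl-WT, against 143 and 123 CPM in Enl-T1. The X-linked *Ndufb11*, of the distal arm, had 248 and 242 CPM in Enl-WT and 295 and 286 CPM in Enl-T1. For both genes the female and male values of a library were closer to each other than to those of the other library.

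The second question was whether the same comparison looked alike in the other cell types, including those that Cre should mostly not reach. The median log2 ratio of Enl-T1 over Enl-WT was above 0 in 7 of the 8 classes. It was 0.54 in ureteric epithelium-like cells (1743 and 1173 cells), 0.55 in podocyte-like cells (227 and 43), 0.32 in distal/loop-like cells (592 and 111), 0.27 in NP2/RV-like cells, named from markers of committed progenitors and renal vesicles (202 and 55), 0.24 in stroma-like cells (869 and 1394) and 0.21 in endothelial-like cells (395 and 257). The medians of all genes in these classes ran from −0.32 to −0.20. Of the classes that Cre should mostly not reach, ureteric epithelium-like cells (0.54) had a median near the highest. Endothelial-like cells (0.21) had the lowest of those above 0. Whether the reach of Cre bears on these values was not tested.

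The counts past the 1.4 fold in Enl-T1 were 19 of 37 in ureteric epithelium-like cells (7.36% of all genes), 13 of 37 in NP2/RV-like cells (10.9%), 21 of 37 in podocyte-like cells (25.1%), 13 of 37 in distal/loop-like cells (10.1%), 13 of 38 in stroma-like cells (8.75%) and 12 of 37 in endothelial-like cells (7.48%). In proximal tubule-like cells (280 and 32 cells) the count was 5 of 37 beside 18.7% of all genes. There the members' median log2 ratio was −0.23, near the −0.31 of all genes, and 15 of 37 were higher. That median turned to 0.09 with median-of-ratios scaling, to 0.07 with the total that left out mitochondrial, ribosomal protein and haemoglobin genes, and to 0.25 when cells above 5% mitochondrial UMIs were left out.

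Members differed in how much their ratio varied from class to class. Of the 37, 14 were higher in Enl-T1 in all 8 classes, and 4 (*Ndufc1*, *Ndufa3*, *Ndufa7* and *Ndufa1*) were higher by 1.4-fold or more in all 8. Another, *Ndufs1*, was higher in none, and the others changed direction between classes, among them *Ndufv3* (log2 ratio −0.39 to 1.12), *Ndufa6* (−0.23 to 1.09) and *Ndufb10*, of the distal arm (−0.77 to 0.26). *Ndufa3* ranged from a ratio of 2.37 in proximal tubule-like cells to 3.76 in stroma-like cells, and *Ndufc1* from 1.59 in proximal tubule-like to 2.87 in podocyte-like cells. *Ndufa7*, an accessory subunit of the Q module, ranged from 1.51 to 2.02. *Ndufs1* was lower in all 8 classes, with ratios from 0.55 in proximal tubule-like cells to 0.78 in stroma-like cells. *Ndufv1* was lower in 7. The 8 comparisons rest on the same pair of libraries, so they are not independent of each other. The share of all genes that were higher, or higher by 1.4-fold, in all 8 classes was not counted. Spearman's rho with coding length ran from −0.85 to −0.65 over the classes.

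**Figure D3:**
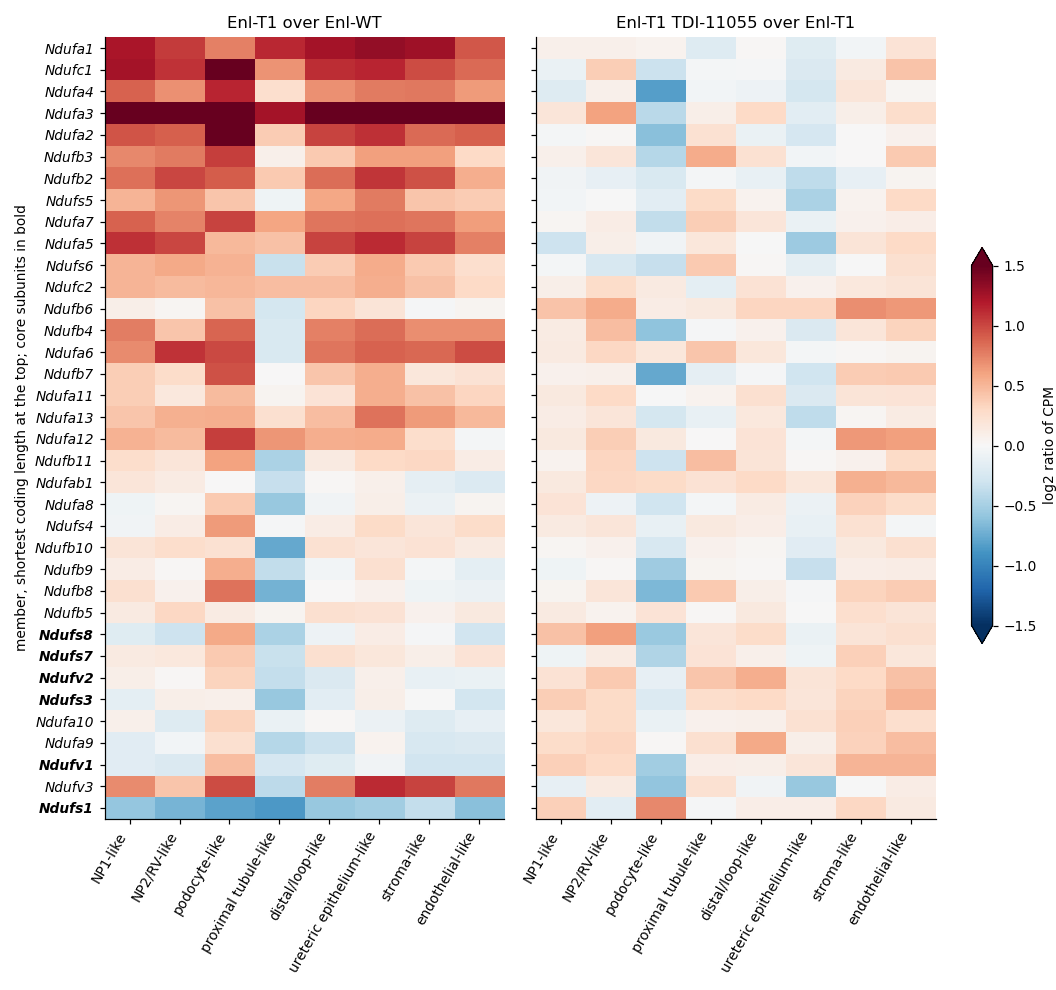
Log2 ratio of CPM for 36 of the 37 members (rows, shortest coding length at the top, core subunits in bold) in 8 classes (columns), in 2 panels, Enl-T1 over Enl-WT and treated over Enl-T1, on a colour scale from −1.5 to 1.5. In the first panel the short members at the top are red in nearly every class and *Ndufs1* at the bottom is blue in all 8, while the pale core rows can change sign with the scaling.

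The third question was whether treatment with TDI-11055 was accompanied by levels nearer to Enl-WT. In NP1-like cells the set as a whole was not nearer: the summed level was 9279 CPM [9225 to 9333] in the treated library against 8952 CPM in Enl-T1 and 6486 CPM in Enl-WT. The median log2 ratio of the treated library over Enl-T1 was 0.11 (all genes 0.01), with 27 of 37 members higher. By coding length, the members' medians were −0.03 under 300 bases, 0.08 from 300 to 450 and 0.09 from 450 to 600. The other genes of those lengths had 0.08, 0.14 and 0.15, so the shorter members lay below them. From 600 to 1200 bases and beyond, the members had 0.25 and 0.32 against 0.15 and −0.11. Within each NP1-like cluster taken alone, 21 to 36 of 37 members were higher, beside 43.1% to 55.1% of all genes. Over the whole class no member was past the 1.4 fold in either direction, beside 9.58% of all genes higher and 11% lower. By a fold of 1.2, 7 were higher, beside 24.2% of all genes, and 1 was lower, beside 24.5%. Of the 5 members with the highest ratios of Enl-T1 over Enl-WT, *Ndufa5* was the only one past that fold, at a ratio of 0.806 [0.758 to 0.857], and its treated level of 175 CPM lay between those of Enl-WT and Enl-T1. The next lowest ratios of the treated library over Enl-T1 were those of *Ndufa4* (0.874 [0.851 to 0.897]) and *Ndufv3* (0.919 [0.847 to 0.998]).

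Most core subunits had higher levels in the treated library than in Enl-T1. Their median log2 ratio of the treated library over Enl-T1 was 0.35, with 6 of 7 higher, against 0.08 for the accessory subunits. *Ndufs8* had the highest ratio (1.35 [1.25 to 1.46]), then *Ndufb6*, a distal arm subunit (1.34 [1.26 to 1.43], 158 and 212 CPM), and *Ndufs3* (1.29 [1.195 to 1.39]). *Ndufs1* had a ratio of 1.28 [1.13 to 1.45] and at 56.2 CPM lay below its Enl-WT level of 65.7 CPM. In the treated library the 7 mitochondrially encoded core genes went the other way, with a median log2 ratio of −0.81 and 0 of 7 higher. In NP1-like cells of that library 37.0% of barcodes had under 1% mitochondrial UMIs. Without such barcodes the summed member level was 8877 CPM [8819 to 8934] in the treated library and 8926 CPM [8865 to 8987] in Enl-T1, so the treated level was no longer the higher one, and the median log2 ratios were 0.05 for all members and 0.34 for the core. The part of these barcodes in the mitochondrially encoded values was not tested.

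The comparison of the treated library with Enl-WT shares a library with each of the others. The treated NP1-like cells had 36 of 37 members higher and a median log2 ratio of 0.46 (all genes −0.31). By the 1.4 fold 17 were higher, beside 8.74% of all genes. The core median was 0.19.

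In the other classes the median log2 ratio of the treated library over Enl-T1 was 0.26 in endothelial-like cells (36 of 37 higher), 0.19 in stroma-like cells (34 of 38), 0.18 in NP2/RV-like cells (32 of 37), 0.10 in distal/loop-like cells (30 of 37) and 0.10 in proximal tubule-like cells (27 of 37). It was −0.10 in ureteric epithelium-like cells (11 of 37 higher) and −0.25 in podocyte-like cells (9 of 37 higher, 43 and 32 cells). No share of all genes stands beside these counts. The other genes of 300 to 450 coding bases, chosen as above, differed by class too. Their medians were 0.19 in endothelial-like, 0.18 in stroma-like, 0.18 in NP2/RV-like, 0.13 in distal/loop-like and 0.15 in proximal tubule-like cells. They were 0.04 in ureteric epithelium-like and −0.11 in podocyte-like cells. The treated library's share of barcodes with under 1% mitochondrial UMIs was 74.6% in NP2/RV-like, 44.4% in proximal tubule-like and 41.8% in distal/loop-like cells, against 8.32% in ureteric epithelium-like and 6.25% in podocyte-like cells, and without those barcodes the NP2/RV-like and proximal tubule-like medians were 0.04 and 0.02. *Ndufb6*, *Ndufa9* and *Ndufab1*, the mitochondrial acyl carrier protein, were the 3 members higher in the treated library in all 8 classes, while *Ndufb2*, of the distal arm, was lower in 7. Here too the share of all genes higher in all 8 classes was not counted.

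**Figure D4:**
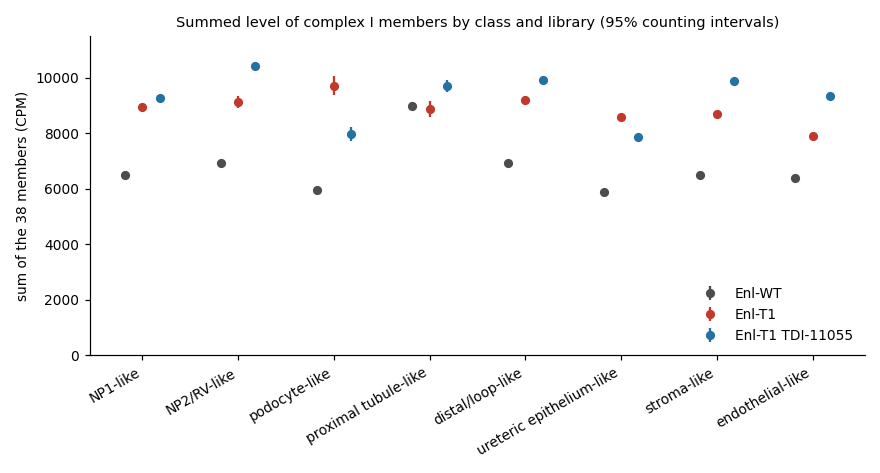
Summed level of the 38 members in CPM in 8 classes, with 1 point per library and bars for the 95% counting interval, on an axis from 0. Enl-WT lies lowest except among proximal tubule-like cells, where it is at 8998 CPM against 8871 in Enl-T1, and the treated library lies above Enl-T1 except among podocyte-like and ureteric epithelium-like cells. Without barcodes under 1% mitochondrial UMIs the NP1-like values were 8926 CPM in Enl-T1 and 8877 in the treated library.

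The last question was how the genes differ along the nephron, from progenitor to tubule, inside a library. In Enl-WT the proximal tubule-like cells stood out: the summed level was 8998 CPM [8860 to 9138] against 6486 CPM in NP1-like cells. All 37 members were higher, 32 with an interval above 1, and the median log2 ratio was 0.42 against −0.02 for all genes. The share of all genes with an interval above 1 was not counted here either. By the 1.2 fold 29 of 37 were higher, beside 37.4% of all genes. For the other classes over NP1-like cells the medians were 0.13 in distal/loop-like, 0.06 in NP2/RV-like, 0.02 in stroma-like, −0.01 in endothelial-like, −0.14 in podocyte-like and −0.14 in ureteric epithelium-like cells. The mitochondrially encoded genes were higher in proximal tubule-like cells too, with 7 of 7 above NP1-like cells and a median of 0.23. When cells above 5% mitochondrial UMIs were left out, the members' median was 0.16, and when cycling cells were left out it was 0.64.

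The members that differed most between proximal tubule-like and NP1-like cells of Enl-WT came from the N module, the Q module and the distal arm. *Ndufv3* had 156 against 69.3 CPM (2.25 [1.91 to 2.65]), and *Ndufa6*, a LYR protein of the Q module that binds the acyl carrier, had 344 against 168 CPM (2.04 [1.84 to 2.27]). *Ndufb4*, of the distal arm, had 239 against 120 CPM (1.99 [1.76 to 2.27]), and *Ndufs6*, a zinc-binding subunit added late to the N module, had 277 against 141 CPM (1.96 [1.74 to 2.21]). Those that differed least were *Ndufs4*, an N module subunit known from Leigh syndrome, with 158 against 147 CPM (1.07 [0.929 to 1.23]), *Ndufa12*, a paralog of the assembly factor *Ndufaf2* (248 and 225 CPM, 1.10 [0.984 to 1.23]), *Ndufa11* (213 and 189 CPM, 1.13 [0.996 to 1.27]) and *Ndufs5* (196 and 174 CPM, 1.13 [0.991 to 1.28]), both of the proximal membrane arm. The intervals of these 4 ratios reached 1.

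Within the other libraries the step from progenitor to proximal tubule was smaller. The median log2 ratio was 0.07 in Enl-T1, where there were 32 proximal tubule-like cells, with 25 of 37 members higher and 7 past the 1.2 fold, beside 37.7% of all genes. In the treated library, with 72 such cells, it was 0.10, with 22 of 37 higher and 7 past the 1.2 fold, beside 32.2% of all genes. *Ndufb4* had a ratio of 1.00 [0.788 to 1.26] in Enl-T1 and 0.909 [0.772 to 1.06] in the treated library, both below its interval in Enl-WT. *Ndufv3* had 1.05 [0.762 to 1.42] and 1.34 [1.10 to 1.62]. *Ndufs6*, at 1.46 [1.28 to 1.67] in the treated library, was the highest of these ratios outside Enl-WT. Summed over members, proximal tubule-like cells had 8998, 8871 and 9693 CPM in Enl-WT, Enl-T1 and the treated library. With mitochondrial, ribosomal protein and haemoglobin genes left out of the total, the same sums were 11669, 14115 and 15032 CPM, so whether the Enl-WT tubule level differed from the others depended on the scaling. Whether the step differed between libraries was not tested.

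**Figure D5:**
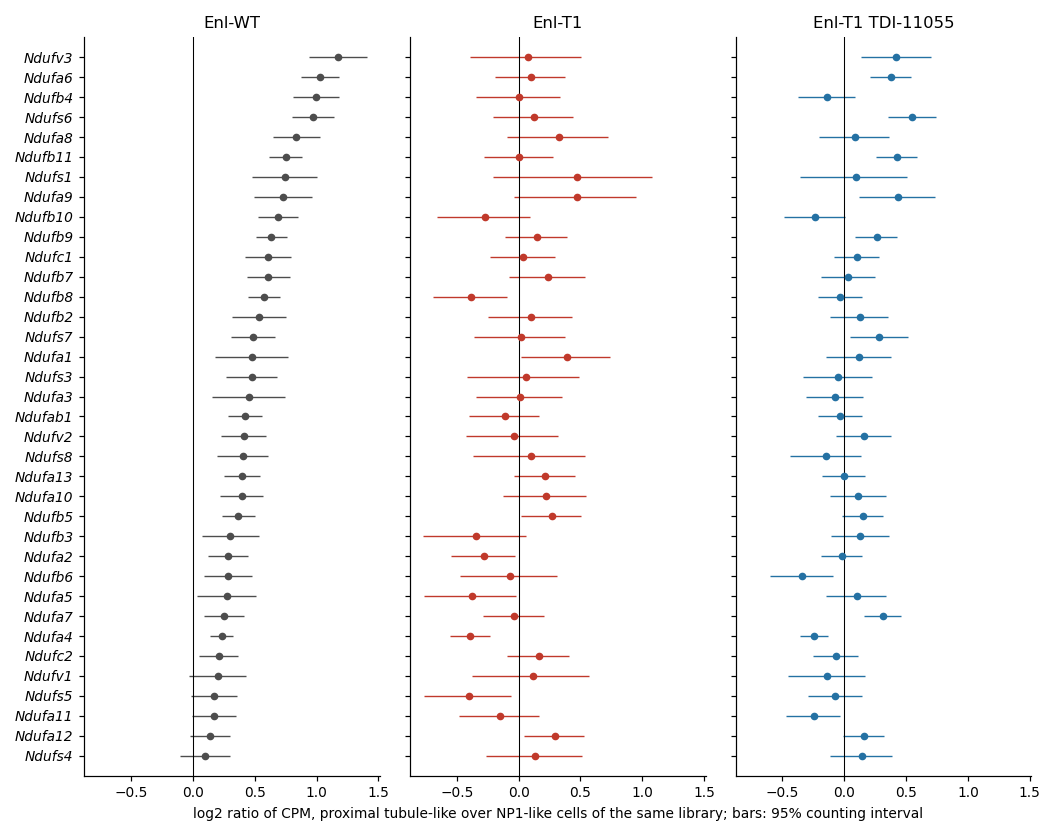
Log2 ratio of CPM of proximal tubule-like over NP1-like cells for 36 of the 37 members, 1 panel per library, with bars for the 95% counting interval. In Enl-WT all 36 points lie to the right of 0 (median of the 37 members 0.42), while in Enl-T1 and the treated library they scatter around it (medians 0.07 and 0.10) with wider bars.

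*Ndufa4l2*, the hypoxia-inducible paralog of *Ndufa4*, was set apart by cell class. It passed 5 CPM among the 8 classes only in stroma-like cells, with 118, 62.5 and 122 CPM in Enl-WT, Enl-T1 and treated cells. Within that class its counts lay mainly in the cluster led by mural-type genes (*Ren1*, *Rgs5* and *Acta2*), with 434, 543 and 712 CPM in the 3 libraries. In the other stroma-like clusters it had 68.1 CPM or less. The mural-type cluster made up 21.9%, 7.39% and 9.96% of their stroma-like cells. The class value of Enl-T1 was thus 0.529 times that of Enl-WT, while within the mural-type cluster the Enl-T1 value was the higher one. *Ndufa4l2* also passed 5 CPM in the nephron cells that took no class name, which are outside the 8 classes. There it had 1, 3 and 33 UMIs, or 3.28, 1.37 and 73.1 CPM, in Enl-WT, Enl-T1 and treated cells.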

How the data were processed

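The authors deposited gene-by-barcode matrices of raw UMI counts for 3 10x Genomics libraries, 1 per group. The submitters' processing notes name Cell Ranger 6.1.2 and mm10. With 1 library per group no test between groups was run. Batches are not given in the sources used here.

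Barcodes with 1000 to 6000 genes and at most 10% mitochondrial UMIs were kept. These were 72.8%, 63.0% and 42.7% of the barcodes of Enl-WT, Enl-T1 and the treated library. Among barcodes within the mitochondrial limit, the upper limit on genes removed 55, 309 and 577. Cells were clustered in Seurat 5.3.0 under R 4.3.3 (2000 variable genes, 30 components and resolution 0.5, nephron cells again with 20 components and resolution 0.8), without the members, other respiratory chain, mitochondrial, ribosomal protein, haemoglobin, sex-linked and *Hox* genes. A cluster took the name with most markers among its 10 leading genes, ties going to the highest mean fold, and needed 3 markers in at least 10% of cells and 20 cells. After the clusters were seen, it was added that a cluster with no marker among its leading genes takes only a name with most of its markers detected. The rebuilt names may differ from those of the study. Nephron cells of clusters that took no name (66, 291 and 58 in Enl-WT, Enl-T1 and the treated library) were left out of the classes compared. A cluster of them led by *Sst* and *Akap12* had 35, 223 and 13 cells. Doublets were left in. The alternative marked 304, 234 and 172 barcodes by Scrublet score before the upper limit on genes, and so removed 288, 176 and 96 kept cells.

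Counts were summed per class and library, given as CPM, and tested genes had a mean of 5 CPM over the libraries. Intervals are exact Poisson for levels and exact binomial for ratios (Python 3.11.15, scipy 1.17.1). The scripts were tested on simulated data. The members, lists and tests were chosen with earlier results of these data known. Genes named with values were nuclear core subunits, the 5 highest and 5 lowest members for Enl-T1 over Enl-WT and the 3 highest and 3 lowest for treated over untreated Enl-T1 in NP1-like cells, the 4 highest and 4 lowest for proximal tubule-like over NP1-like cells in Enl-WT, the 3 highest and 3 lowest levels, the X-linked members, *Ndufa4*, *Ndufa4l2*, *Mllt1*, and the 2 highest and 2 lowest assembly factors and regulators. *Ndufv3*, *Ndufa7*, *Ndufa10*, *Ndufab1*, *Ndufb10* and *Ndufb2* are also named where counts or the length relation single them out, after their values were seen, and *Ndufb1-ps* was added as the row left out by symbol. The values of 1 member are not reported here singly, though sums, counts and medians include it. Lengths are those of principal transcripts in GENCODE vM21. Of 18 assembly factors, 17 were measured. Alternatives covered the scaling, the low-value filter, the upper limit on genes, thinning to 2000 UMIs, mitochondrial limits, doublets, sex, cycling cells and cluster resolution. Without the upper limit on genes, 2 values outside the main medians and counts moved and 1 did not. The one that left out barcodes under 1% mitochondrial UMIs was chosen after seeing the data.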

Additional observations from a re-analysis of the deposited data

Results flagged for a closer look

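In 3 cases the median log2 ratio of the complex I members had the opposite sign to that in NP1-like cells. For Enl-T1 over Enl-WT it was −0.23 in proximal tubule-like cells against 0.37 in NP1-like cells. For the library treated with TDI-11055 over Enl-T1 it was −0.25 in podocyte-like cells and −0.10 in ureteric epithelium-like cells, against 0.11 in NP1-like cells. With 1 library per group these differences were not tested. *Ndufb1-ps*, which the rule on symbols left out, was present at 292 CPM in Enl-T1 NP1-like cells, against 73.3 CPM in Enl-WT.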

How the results depend on the processing

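No paired analysis was possible because each group has 1 library, and no library could be left out in turn. All values are median log2 ratios of the members unless named otherwise, and the cause of each shift was not tested. With median-of-ratios scaling, Enl-T1 over Enl-WT was 0.70 in NP1-like, 0.59 in NP2/RV-like, 0.57 in distal/loop-like, 0.84 in ureteric epithelium-like, 0.54 in stroma-like, 0.51 in endothelial-like and 0.09 in proximal tubule-like cells, and the treated library over Enl-WT was 0.79 in NP1-like cells. With a total that left out mitochondrial, ribosomal protein and haemoglobin genes, Enl-T1 over Enl-WT was 0.61 in NP1-like, 0.68 in ureteric epithelium-like, 0.42 in stroma-like and 0.07 in proximal tubule-like cells, and the treated library over Enl-WT was 0.64 in NP1-like cells. Under these scalings the core median for Enl-T1 over Enl-WT in NP1-like cells turned to 0.19 and 0.10, and the log2 ratios turned to 0.16 and 0.065 for *Ndufs8*, and 0.17 and 0.077 for *Ndufv1*. The count of members lower in Enl-T1 by 1.4-fold was 0 under both and 0 with cells thinned to 2000 UMIs. Thinning gave 3 members higher in the treated library than in Enl-T1 by 1.4-fold, and 0.42 for Enl-T1 over Enl-WT in ureteric epithelium-like cells. A fold of 1.2 gave 7 members higher and 1 lower for the treated library over Enl-T1. Without the filter on low values 1 member was lower there by 1.4-fold, and Enl-T1 over Enl-WT was 0.42 in ureteric epithelium-like cells. With at most 5% mitochondrial UMIs it was 0.25 in proximal tubule-like and 0.37 in ureteric epithelium-like cells, and proximal tubule-like over NP1-like cells in Enl-WT was 0.16. In male cells alone Enl-T1 over Enl-WT was 0.35 in ureteric epithelium-like cells and the treated library over Enl-T1 was 0.31 in stroma-like cells. Averaged within clusters, Enl-T1 over Enl-WT was 0.38 in stroma-like cells. Without cycling cells, proximal tubule-like and distal/loop-like over NP1-like cells in Enl-WT were 0.64 and 0.31. None of the main medians and counts moved beyond its spread when barcodes under 1% mitochondrial UMIs (27 values) or doublets (23) were left out, or at the coarser resolution (23). With 1 library per group that spread holds no differences between embryos. Without those barcodes the NP2/RV-like and proximal tubule-like medians of treated over Enl-T1 were still lower, as given above. The order of the NP1-like sums of these libraries also turned. For proximal tubule-like cells the comparison of male cells alone was not run, for lack of cells. Counting depth limits the podocyte-like and proximal tubule-like values most, with 43 and 32 cells in Enl-T1.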
